A study of Homo sapiens with 8 samples.

Results

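SKP1, TCF7 and LEF1 were followed through 8 RNA-seq libraries of 2 leukemia clones. They are 3 of the 60754 rows of the deposited table, and all 3 were among the 15614 genes that passed the filter on low values, a TPM (transcript abundance corrected for length) of at least 1 in at least 1 library. SKP1 and TCF7 were chosen as a pair of genes whose annotated spans overlap on opposite strands of chromosome 5, and LEF1 as the paralog of TCF7. They were selected on the difference in TPM between resistant and parental cells as well as on position, with that difference already known, so their levels and changes are given as a description with 95% confidence intervals and with no p-value.

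The cells were SEM, a line of human acute lymphoblastic leukemia of the B lineage with a KMT2A rearrangement. Both alleles of CTCF carried an in-frame miniAID-mClover3 tag, a degron, and a point mutant of OsTIR1, a plant F-box protein, was expressed from a lentiviral cassette with an MND promoter that also confers Zeocin resistance. Parental and resistant cells of both clones carried all of these. The clones, C17.2 and C3.2, had each been grown from 1 sorted cell. Parental cells were untreated, and resistant cells had been kept for 36 days in 1 μM 5-Ph-IAA, the auxin analog that this mutant binds and that brings tagged CTCF to it, together with 100 μg/ml Zeocin, and were then taken off both agents. Resistant cells of C17.2 carried a stop codon in CTCF ahead of the tag, and those of C3.2 a mutation within the tag. In the paper, full-length tagged CTCF returned in resistant cells of C17.2 once auxin was removed, beside the truncated form. Each of the 4 groups had 2 libraries. The sources used here do not say whether the libraries of a group came from separate cultures, so the spread between them, and every p-value below, may be technical. Library titles begin with numbers from a separate range in each clone, and the sources used here do not say what they mean. If they mark batches, a difference in level between clones and one between batches cannot be told apart.

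SKP1 is the adaptor of SCF ubiquitin ligases. It ties the scaffold CUL1 to 1 of many F-box proteins, each of which chooses its own substrates, and OsTIR1 enters the ligases of these cells through the same adaptor. TCF7 and LEF1 are DNA-binding proteins of the TCF/LEF family that repress or activate Wnt target genes, depending on whether they are bound by TLE corepressors or by β-catenin, itself a substrate of an SCF ligase. LEF1 is known for its role in immature B and T cells, and TCF7 for its role in T cells, where an internal promoter also gives shorter forms without the part that binds β-catenin.

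In the Gencode 44 annotation of GRCh38, SKP1 occupies chr5:134148935-134176964 on the reverse strand and TCF7 chr5:134114681-134151865 on the forward strand. The genes run toward each other and share the 2931 bases from 134148935 to 134151865 at their 3′ ends, while their outermost starts are 62283 bases apart. Nearly all of that shared stretch is exonic on 1 strand only. The last exon of the canonical SKP1 transcript is 8834 bases long, of which 33 are coding and the remainder 3′ untranslated region, and it covers the whole of the shared stretch. The canonical TCF7 transcript ended at 134148210, 724 bases short of SKP1, and the canonical exons of the genes had 0 bases in common. When all 13 SKP1 and all 24 TCF7 transcripts were merged, 210 exonic bases were shared, or 1.65% of the exonic bases of SKP1 and 2.08% of those of TCF7, and 65 of them were coding in a TCF7 transcript. Whether the quantification used strand is not given in the sources used here. LEF1 lies at chr4:108047545-108168956 on the reverse strand, and its 5′ end meets the antisense gene LEF1-AS1, with 279 exonic bases in common.

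The promoters of the 3 genes are shown because the genes of the overlapping pair do not share one, and because TCF7 has 2 start sites in RefSeq. The sequences are the 250 bases before each RefSeq start (GRCh38.p14), 5′ to 3′ on the strand of the gene. Capitals mark matches, in either orientation, to TATAAA or GGGCGG (the letters of a TATA box and of a GC box).
SKP1, chr5:134176951-134177200, reverse strand: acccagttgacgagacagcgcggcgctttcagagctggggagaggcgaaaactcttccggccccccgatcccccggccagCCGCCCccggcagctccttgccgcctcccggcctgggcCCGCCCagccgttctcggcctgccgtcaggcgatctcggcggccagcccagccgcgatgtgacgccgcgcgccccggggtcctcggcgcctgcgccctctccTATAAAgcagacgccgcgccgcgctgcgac
TCF7, first start, chr5:134115363-134115612, forward strand: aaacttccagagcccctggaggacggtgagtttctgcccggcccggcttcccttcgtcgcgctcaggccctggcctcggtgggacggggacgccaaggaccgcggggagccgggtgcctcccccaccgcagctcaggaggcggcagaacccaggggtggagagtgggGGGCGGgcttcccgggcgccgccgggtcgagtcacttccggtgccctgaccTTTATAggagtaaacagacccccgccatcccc
TCF7, second start, chr5:134123368-134123617, forward strand: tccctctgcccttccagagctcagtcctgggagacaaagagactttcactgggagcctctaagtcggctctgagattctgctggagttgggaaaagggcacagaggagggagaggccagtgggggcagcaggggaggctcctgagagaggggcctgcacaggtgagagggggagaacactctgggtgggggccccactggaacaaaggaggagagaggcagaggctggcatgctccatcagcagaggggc
LEF1, chr4:108166302-108166551, reverse strand: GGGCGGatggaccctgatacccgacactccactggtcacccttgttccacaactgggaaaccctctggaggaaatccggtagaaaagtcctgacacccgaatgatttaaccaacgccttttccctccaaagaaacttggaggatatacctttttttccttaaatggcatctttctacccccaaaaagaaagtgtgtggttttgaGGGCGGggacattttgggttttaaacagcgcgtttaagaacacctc
The SKP1 promoter had TATAAA at position -30 from its start and GGGCGG on the opposite strand at -170 and -132. The first TCF7 promoter had TATAAA on the opposite strand at -32 and GGGCGG at -83, and the second had neither. LEF1 had GGGCGG at -250 and -46. Counting the 50 bases from the start on as well, windows of 300 bases held TATAAA in 11.5% and GGGCGG in 45.0% of 35116 RefSeq promoters. None of the 4 windows held CTTTGAA or CTTTGAT, letters of TCF/LEF sites that 4.43% and 2.62% of promoters held, or the core of the CTCF motif, which 1.05% held. Other forms of TCF/LEF sites were not searched. The second TCF7 promoter holds aacaaag, which is CTTTGTT on the opposite strand, so the windows are not shown to lack such sites. The windows were 71.3% G and C for SKP1, 69.7% and 61.0% for the TCF7 starts and 47.0% for LEF1, with a median of 58.7% over all promoters.

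Between the libraries of a group, Pearson's r over all tested genes was 0.969 to 0.979, with genes not counted as independent. CTCF, the tagged gene, was listed at 32.2 to 54.7 TPM. TPM keeps no depth, so depth and counting error are unknown. Between 36.0% and 43.3% of a library's TPM was protein-coding, and libraries were therefore also scaled by a trimmed mean of ratios, with factors of 0.893 to 1.16. Changes below are differences of log2(scaled TPM + 1) in limma, which understate the change of low genes. Of 10 B-lineage markers, 8 reached 1 TPM, and their sum was 703 to 887 TPM, while DNTT and RAG1 stayed under 1 TPM. Of 10 T-lineage markers only TRAC reached 1 TPM, at 38.6 to 49.2 TPM, and CD3D, CD4, CD8A, CD8B and CD5 were listed at 0 in all 8 libraries. Myeloid markers summed to 0.54 to 0.71 TPM in the parental libraries of both clones and to 1.85 to 1.92 TPM in resistant libraries of C3.2. In resistant libraries of C17.2 they summed to 1.21 TPM and, in replicate 2, to 4.80 TPM. Of the 8 myeloid markers only LYZ reached 1 TPM. It was at 1.84 and 1.80 TPM in resistant libraries of C3.2 and at 0.97 and 2.18 TPM in those of C17.2. In bulk RNA, fewer cells of a type and less RNA per cell cannot be told apart.

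SKP1 RNA was 1.56-fold higher in resistant than in parental cells of C17.2 and differed little in C3.2. In C17.2 its level was 93.2 and 84.9 TPM in the parental libraries and 149 and 162 TPM in the resistant ones. In C3.2 it was 112 and 115 TPM in parental and 121 and 113 TPM in resistant libraries. Both resistant libraries of C17.2 stood above all 6 others, both of its parental libraries stood below all others, and the groups of C3.2 overlapped. The log2 change was 0.64 in C17.2 (standard error 0.044, 95% confidence interval 0.53 to 0.74, n = 2 against 2). In C3.2 it was -0.019 (-0.13 to 0.087), a sign that turned with TPM as deposited (0.047), TPM rescaled over protein-coding genes (0.084) and quantile normalization (0.084). The change in C17.2 exceeded that in C3.2 by 0.66 (0.51 to 0.81).

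Parental cells of C17.2 were the group that stood apart in SKP1 level. After scaling, they averaged 87.4 ± 1.98 TPM (SD, n = 2), against 125 ± 0.718 in parental and 123 ± 1.70 in resistant cells of C3.2 and 137 ± 5.47 in resistant cells of C17.2. The neighbors in this order that overlapped were the groups of C3.2. Between parental cells the log2 difference was -0.51 (C17.2 minus C3.2, -0.62 to -0.40) and between resistant cells 0.15 (0.040 to 0.25). Clone and any batch that follows the clone cannot be told apart in these last differences. Leaving out 1 library gave changes between 0.60 and 0.68 in C17.2. The lowest, 0.60, was without resistant replicate 2, the library with the highest SKP1 level. That library also had the highest myeloid marker sum, whose part in the SKP1 values was not tested.

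TCF7, at the other end of the overlap, moved far less. Its level was 33.6 and 33.0 TPM in parental and 41.9 and 41.1 TPM in resistant libraries of C17.2, and 24.8 and 25.5 TPM in parental and 25.9 and 22.6 TPM in resistant libraries of C3.2. All libraries of C17.2 were above all libraries of C3.2, and as deposited the groups of C3.2 overlapped. After scaling, the order was 25.5 ± 1.59 TPM (SD, n = 2) in C3.2 resistant cells, 27.7 ± 0.0545 in C3.2 parental cells, 32.7 ± 1.01 in C17.2 parental cells and 36.4 ± 1.24 in C17.2 resistant cells, with no overlap between neighbors. The log2 change was 0.15 in C17.2 (0.015 to 0.29) and -0.12 in C3.2 (-0.26 to 0.018), and the difference between these was 0.27 (0.077 to 0.46). The value in C17.2 was 0.31 with TPM as deposited and 0.24 with TPM rescaled over protein-coding genes. The value in C3.2 was -0.18 without resistant replicate 1 and -0.058 without resistant replicate 2. Over the same groups, T-lineage markers summed to 45.2 to 49.5 TPM in parental and 38.7 to 39.5 TPM in resistant libraries of C17.2, and to 47.3 to 49.3 TPM in parental and 42.3 to 44.4 TPM in resistant libraries of C3.2. Nearly all of this sum was TRAC, at 38.6 to 49.2 TPM over the 8 libraries. The sum was lower in the resistant libraries of both clones, and its part in the TCF7 values was not tested.

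LEF1 was the most abundant of the 3 genes per length, ranking 206 to 258 by TPM among the 20004 protein-coding rows, against 354 to 617 for SKP1 and 1792 to 2990 for TCF7. In C17.2 it was listed at 244 and 248 TPM in parental and 267 and 279 TPM in resistant libraries, and in C3.2 at 222 and 223 TPM in parental and 200 and 182 TPM in resistant libraries. The resistant libraries of C3.2 were the lowest 2 of all 8, also after scaling, where they averaged 201 ± 6.22 TPM (SD, n = 2) and the other 3 groups overlapped between 233 and 251 TPM. The log2 change was -0.29 in C3.2 (standard error 0.051, -0.41 to -0.16), and it was -0.18 with TPM rescaled over protein-coding genes and -0.13 after quantile normalization. In C17.2 it was -0.012 (-0.14 to 0.11), which became 0.15 with TPM as deposited, 0.073 rescaled over protein-coding genes, 0.10 after quantile normalization and 0.043 without parental replicate 2. The changes in the clones differed by 0.27 (0.098 to 0.45). B-lineage markers summed to 821 to 874 TPM in parental and 703 to 739 TPM in resistant libraries of C3.2, and to 835 to 887 TPM and 779 to 783 TPM in those of C17.2, and their part in the LEF1 values was not tested.

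**Figure D1:**
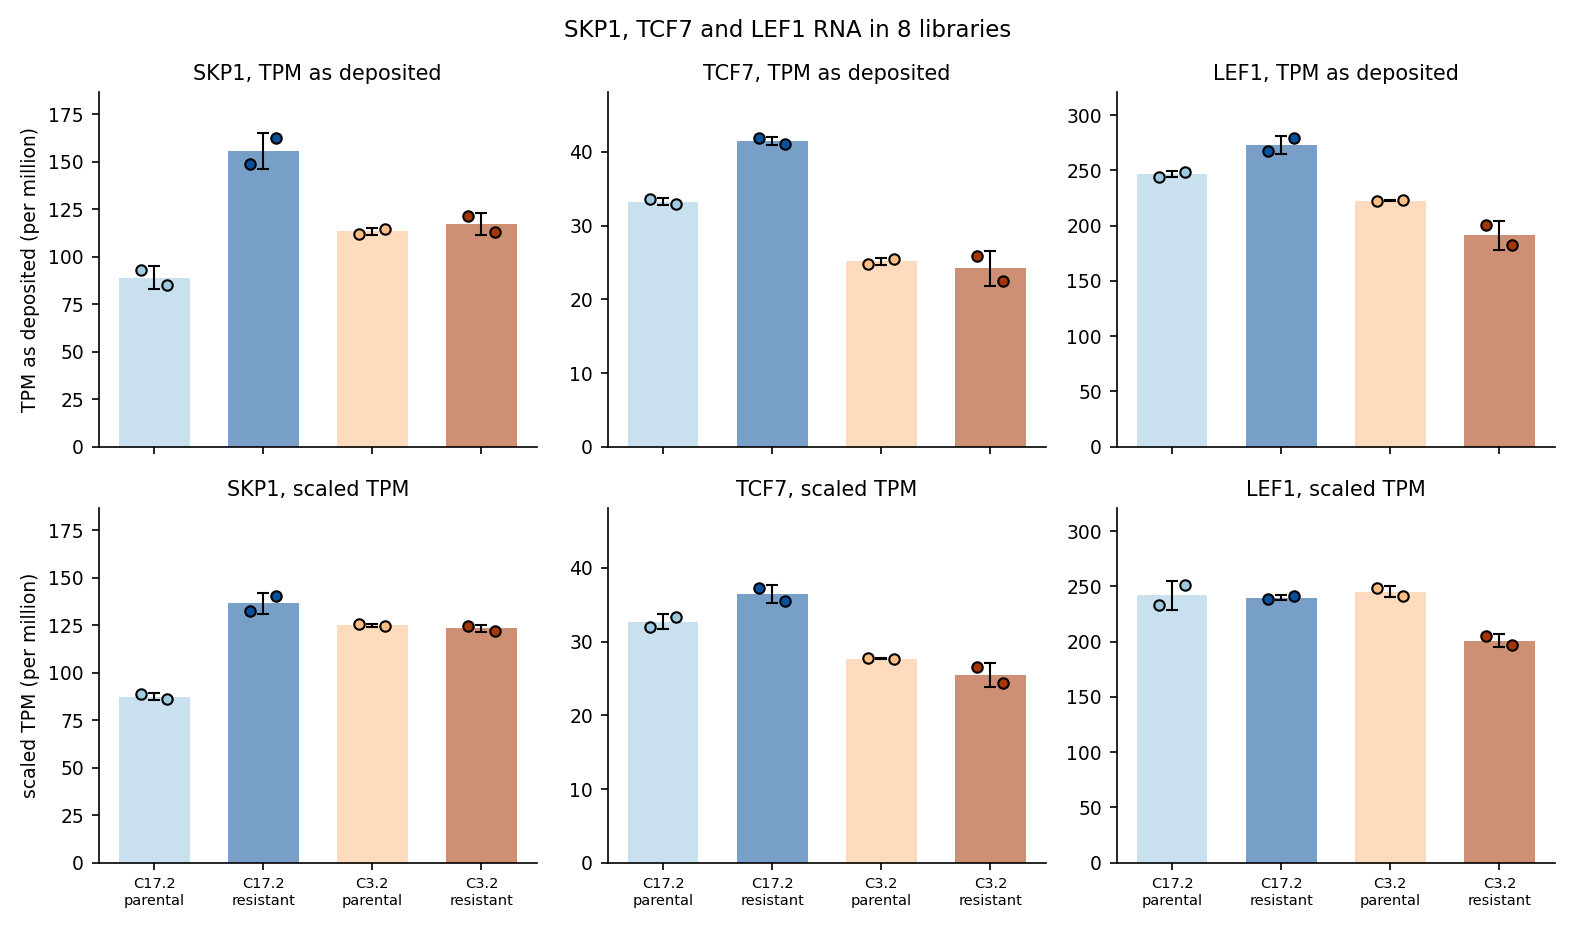
RNA of SKP1, TCF7 and LEF1 in TPM as deposited (top row) and scaled TPM (bottom row), with 1 point per library, bars at the group mean and error bars of 1 SD (n = 2). SKP1 was lowest in both parental libraries of C17.2, TCF7 was higher in C17.2 than in C3.2, and LEF1 was lowest in the resistant libraries of C3.2.

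In C17.2, 1 of the 3 genes (SKP1) passed an adjusted p of 0.05, as did 27.3% of all genes tested, and the libraries of the groups did not overlap after scaling for SKP1 and TCF7, as for 66.0% of genes. In C3.2, 1 of the 3 (LEF1) passed, as did 11.4% of genes, and TCF7 and LEF1 did not overlap after scaling, as for 55.8% of genes. For the difference between the clones' changes, 1 of the 3 (SKP1) passed, as did 9.91% of genes. These counts describe the choice of the genes and are no evidence about them. With 2 libraries against 2, an exact two-sided permutation test of a single gene cannot go below p = 0.333.

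**Figure D2:**
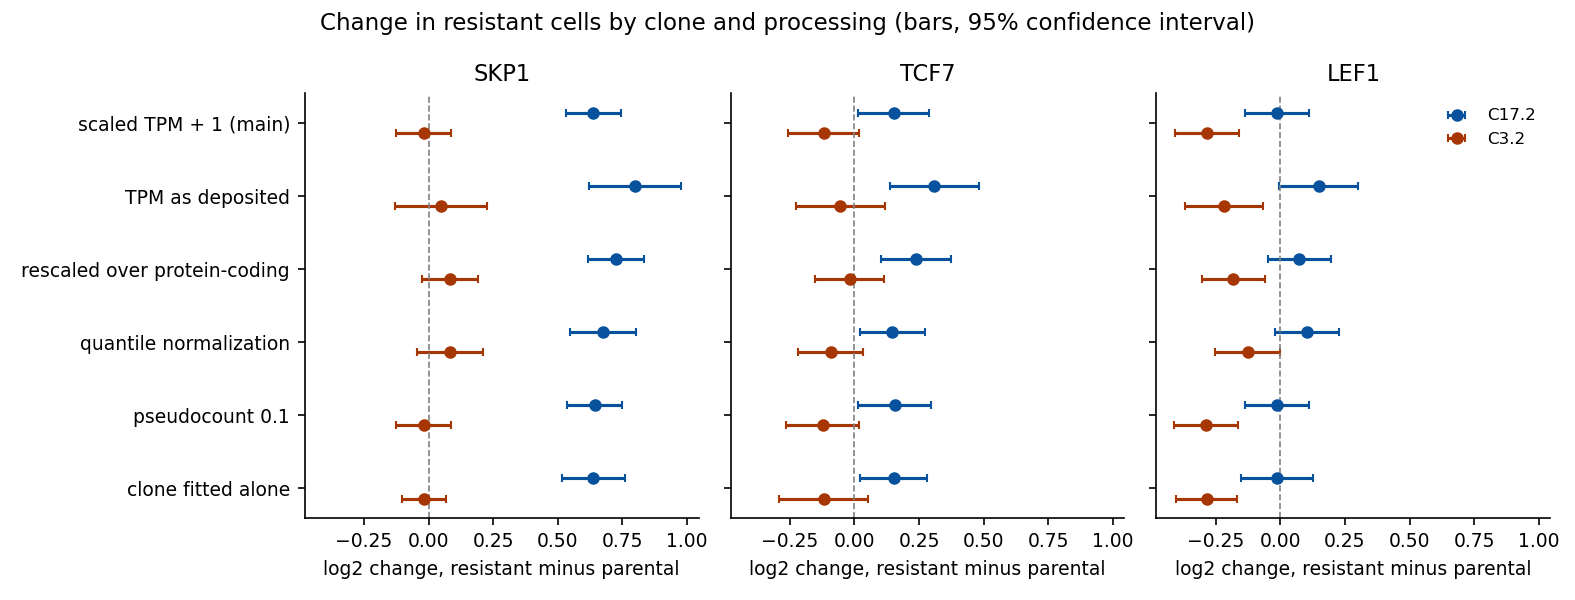
Log2 change between resistant and parental cells (horizontal axis) of SKP1, TCF7 and LEF1 under 6 ways of processing, with 95% confidence intervals, C17.2 in blue and C3.2 in brown. The SKP1 change in C17.2 lay between 0.64 and 0.80 under all of them, while the changes of SKP1 in C3.2 and of LEF1 in C17.2 took both signs.

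Ratios within a library, here from TPM as deposited, do not depend on a factor applied to the whole library, but quantile normalization alters them. The ratio of TCF7 to LEF1 was 0.137 and 0.133 in parental and 0.157 and 0.147 in resistant libraries of C17.2, and 0.112 and 0.114 in parental and 0.129 and 0.124 in resistant libraries of C3.2. It was higher in the resistant libraries of both clones with no overlap, by a log2 value of 0.17 in C17.2 (pooled SD 0.050) and 0.16 in C3.2 (0.037). After quantile normalization these fell to 0.042 and 0.036, as differences of the fitted log2 changes, an alternative chosen after seeing the data. The larger part came from the TCF7 change in C17.2 (0.15 against -0.012 for LEF1) and from the LEF1 change in C3.2 (-0.29 against -0.12 for TCF7), on the scaled scale. The ratio of SKP1 to TCF7 was also higher in resistant libraries, by 0.49 in C17.2 and by 0.10 in C3.2, where it was 0.055 without resistant replicate 2 and 0.17 after quantile normalization. SKP1 relative to its scaffold CUL1 was 3.73 and 3.79 in parental and 4.89 and 5.14 in resistant libraries of C17.2, a log2 difference of 0.42. In C3.2 this ratio was 4.85 and 4.78 in parental and 4.62 and 4.59 in resistant libraries, a difference of -0.065 that turned to 0.019 after quantile normalization. No test was run on these ratios.

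**Figure D3:**
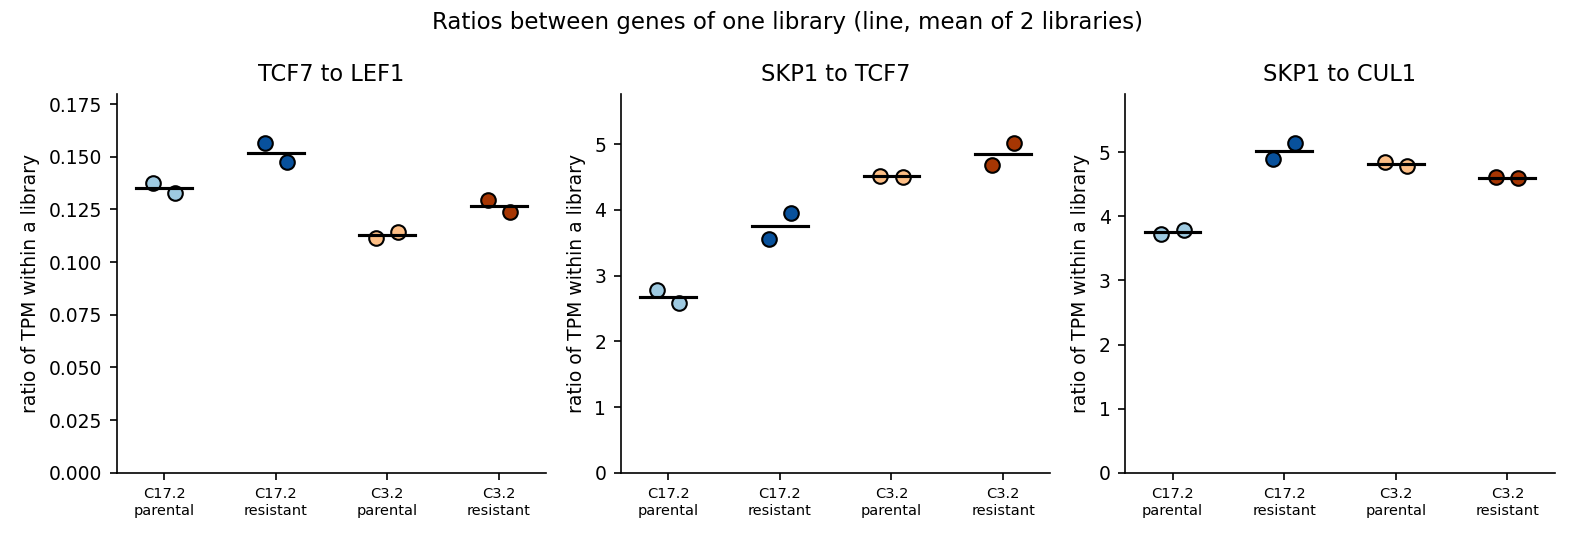
Ratio of TPM between genes of 1 library for TCF7 to LEF1, SKP1 to TCF7 and SKP1 to CUL1, with 1 point per library and a line at the group mean. The TCF7 to LEF1 ratio was higher in resistant than in parental libraries of both clones, and the SKP1 to CUL1 ratio was lowest in the parental libraries of C17.2.

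Rows that share sequence or position with the 3 genes were examined next. The readthrough gene AC104109.3, annotated over SKP1 on the same strand, was listed at 0 except for 0.10 TPM in C3.2 resistant replicate 1. The SKP1 pseudogene SKP1P3 was listed at 0 in all libraries. A second pseudogene, SKP1P1 on chromosome 7, was at 2.18 and 1.62 TPM in parental and 3.03 and 5.25 TPM in resistant libraries of C17.2, and its log2 change of 0.67 (standard error 0.31) did not pass (adjusted p = 0.165, limma with Benjamini-Hochberg adjustment). Without resistant replicate 2 that change was 0.38. Reads of near-identical copies are divided by an estimate, so the split between SKP1 and SKP1P1 is uncertain. LEF1-AS1, the antisense neighbor of LEF1, was at 14.8 and 13.7 TPM in parental and 12.95 and 11.7 TPM in resistant libraries of C17.2, and it fell by 0.34 (adjusted p = 0.0307). In C3.2, at 12.0 and 12.0 TPM in parental and 13.5 and 15.0 TPM in resistant libraries, its log2 change was 0.17 (adjusted p = 0.273), and the clones differed by -0.51 (adjusted p = 0.0524). The C17.2 call was lost in 4 of 8 processing alternatives, up to adjusted p = 0.104 with TPM as deposited, and in 5 of the 8 fits that left out 1 library, up to adjusted p = 0.152 without C17.2 resistant replicate 2. If strand was not used, reads from LEF1 and LEF1-AS1 over their shared exons, and from SKP1 and TCF7 over theirs, cannot be told apart.

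The other TCF/LEF genes were listed below TCF7 and LEF1 in every library. TCF7L1 did not exceed 0.03 TPM in any library. TCF7L2 was at 9.99 and 8.88 TPM in parental and 9.20 and 8.77 TPM in resistant libraries of C17.2, and between 5.16 and 6.28 TPM in C3.2, with log2 changes of -0.21 (adjusted p = 0.12, limma) and -0.0071 (adjusted p = 0.978). TCF7 and LEF1 were thus the most abundant TCF/LEF genes per length in all 8 libraries.

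A list of 68 genes whose products work with SKP1 was followed, of which 65 were tested. In C17.2, 13 of the 65 passed the adjusted p of 0.05 (limma, Benjamini-Hochberg over all 15614 genes), 9 higher and 4 lower in resistant cells, or 20.0% against 27.3% of all genes, with a median log2 change of 0.011 against 0 over all genes. In C3.2, 6 passed, 1 higher and 5 lower, or 9.23% against 11.4%, with a median of -0.032. These splits depended on the scaling. In C17.2 they were 21 higher and 0 lower with TPM as deposited and 15 higher and 1 lower rescaled over protein-coding genes, and in C3.2 they were 2 higher and 1 lower, and 6 higher and 1 lower. Of the 3 genes of the cullin and RING role, CUL1 and RBX1 rose in C17.2. CUL1, the scaffold, went from 25.0 and 22.4 TPM to 30.4 and 31.6 TPM (log2 change 0.22, adjusted p = 0.0122), and RBX1, the RING subunit, from 20.2 and 19.6 TPM to 26.4 and 27.3 TPM (0.26, adjusted p = 0.0088). The log2 changes of CUL1 and RBX1 in C3.2 were 0.044 and 0.028. Neither CUL1 (adjusted p = 0.131) nor RBX1 (adjusted p = 0.0806) passed for a difference between the clones. The third gene, CUL7, did not pass in either clone.

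Among the F-box receptors, SKP2, which directs the ligase to the cell-cycle inhibitor p27, had the largest rise in C17.2. It was at 24.4 and 22 TPM in parental and 39.8 and 40.4 TPM in resistant libraries, a log2 change of 0.61 (standard error 0.050, adjusted p = 0.000501, limma), against -0.19 in C3.2 (adjusted p = 0.064). The parental and resistant libraries of C17.2 did not overlap, which the rule for naming SKP2 required. Its change differed between the clones by 0.79 (adjusted p = 0.00231, limma). SKP2 passed in C17.2 under all 8 processing alternatives and all 8 fits with 1 library left out. FBXO46 and FBXO25, other F-box proteins, fell in C17.2 by 0.55 (adjusted p = 0.0192) and 0.40 (adjusted p = 0.0334), and FBXO25 fell in C3.2 by 0.51 (adjusted p = 0.030). FBXO21 fell in C3.2 by 0.35 (adjusted p = 0.0347). None of 8 F-box genes with WD40 repeats, the group that holds the β-catenin receptors BTRC and FBXW11, passed in either clone, against 27.3% and 11.4% of all genes, while 3 in C17.2 and 1 in C3.2 had an unadjusted p under 0.05 in limma, against 39.3% and 27.6%.

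Factors that load or modify SCF ligases included NEDD8, the ubiquitin-like protein attached to cullins, and CAND1, which exchanges F-box modules on CUL1. NEDD8 was at 70.6 and 72.2 TPM in parental and 123 and 120 TPM in resistant libraries of C17.2 (log2 change 0.60, adjusted p = 0.0309, limma), and at 82.8 and 87.7 TPM in parental and 90.8 and 60.1 TPM in resistant libraries of C3.2. As deposited, the resistant libraries of C3.2 lay on both sides of its parental ones for NEDD8, and after scaling the groups of C3.2 also overlapped. CAND1 was at 54.7 and 51.0 TPM in parental and 73.0 and 76.8 TPM in resistant libraries of C17.2 (0.34, adjusted p = 0.004), and its log2 change in C3.2 was -0.20 (adjusted p = 0.0523), a difference of 0.53 (adjusted p = 0.00787). CDC34, the ubiquitin-conjugating enzyme of SCF ligases, fell in C3.2 by 0.32 (adjusted p = 0.0331). Of the polycomb complex PRC1.1, in which SKP1 is also a subunit, RYBP rose by 0.37 (adjusted p = 0.0217) and RNF2 fell by 0.36 (adjusted p = 0.0319) in C3.2.

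The calls of SKP2, CAND1, CUL1 and RBX1 in C17.2 held under all 8 processing alternatives, and those of SKP2 and CAND1 also with any 1 library left out. CUL1 was lost without C17.2 parental replicate 2 (adjusted p = 0.051, limma) or resistant replicate 2, and RBX1 without parental replicate 1 (adjusted p = 0.0511). NEDD8 held in 2 of the 8 fits with 1 library left out (adjusted p = 0.167 without C17.2 parental replicate 1), FBXO46 in 5 (0.116 without the same library) and FBXO25 in 3 (0.148 without C17.2 resistant replicate 2). The C3.2 calls of FBXO25, RYBP, RNF2, FBXO21 and CDC34 held in 2, 3, 1, 1 and 3 of these 8 fits. Under the 8 processing alternatives, NEDD8, FBXO46 and FBXO25 in C17.2 held in 7, 6 and 4, and FBXO25, RYBP, RNF2, FBXO21 and CDC34 in C3.2 in 6, 7, 4, 3 and 3. The number of list genes called in C17.2 was 6 without parental replicate 1, 6 without parental replicate 2 and 5 without resistant replicate 2, and in C3.2 it was 0 without either parental replicate (13 genes each at an unadjusted p under 0.05 in limma) and 1 without resistant replicate 2 or either parental replicate of C17.2.

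The pathway of TCF7 and LEF1 was followed with a list of 87 genes, of which 44 were tested. The untested genes included all 10 secreted Wnt inhibitors of the list (at most 0.23 TPM) and 18 of 20 genes for Wnt ligands and their secretion (at most 0.54 TPM), leaving PORCN and WLS, which serve Wnt secretion. In C17.2, 16 of the 44 passed, 8 higher and 8 lower (36.4% against 27.3% of all genes, median log2 change 0.035). In C3.2, 2 passed, both lower (4.55% against 11.4%, median 0.031). With TPM as deposited the split was 16 higher and 4 lower in C17.2 and 1 and 1 in C3.2, and rescaled over protein-coding genes it was 14 and 4 in C17.2 and 6 and 1 in C3.2. CTNNB1, which encodes β-catenin, the coactivator of TCF7 and LEF1, rose in C17.2. It was at 59.1 and 57.1 TPM in parental and 86.3 and 86.5 TPM in resistant libraries, a log2 change of 0.41 (standard error 0.044, adjusted p = 0.00143, limma). In C3.2, at 56.0 and 57.7 TPM in parental and 63.6 and 63.9 TPM in resistant libraries, its log2 change was 0.098 (adjusted p = 0.215), and the clones differed by 0.31 (adjusted p = 0.0313).

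Of receptors, LGR5, a receptor for R-spondins that enhance Wnt signaling, moved in opposite directions in the clones. It was at 1.40 and 1.41 TPM in parental and 4.62 and 4.72 TPM in resistant libraries of C17.2 (log2 change 1.1, adjusted p = 0.000484, limma), and at 3.22 and 3.88 TPM in parental and 2.31 and 2.05 TPM in resistant libraries of C3.2 (-0.57, adjusted p = 0.0134). No libraries of parental and resistant cells overlapped in either clone, which the rule for naming LGR5 required. The difference between the clones was 1.67 (adjusted p = 0.00151, limma). LRP5, a Wnt coreceptor, was at 8.75 and 8.91 TPM in parental and 5.35 and 4.99 TPM in resistant libraries of C17.2, a log2 change of -0.80 (adjusted p = 0.00492). The Frizzled receptor FZD3 rose by 0.67 in C17.2 (adjusted p = 0.0149), and FZD2, at 2.24 to 3.46 TPM, fell by 0.35 in C3.2 (adjusted p = 0.0393) and by 0.27 in C17.2 (adjusted p = 0.0483).

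TLE3, a corepressor that binds TCF/LEF proteins, was at 10.2 and 8.32 TPM in parental and 5.78 and 5.56 TPM in resistant libraries of C17.2, a log2 change of -0.75 (adjusted p = 0.00147, limma), and its change in C3.2 was -0.32 (adjusted p = 0.0573). BAMBI, a membrane pseudoreceptor and known Wnt target, was at 1.52 and 1.37 TPM in parental and 0.12 and 0.10 TPM in resistant libraries of C17.2 (-1.14, or -2.95 with a pseudocount of 0.1, adjusted p = 0.00268 and 0.00905), and at 0.04 to 0.19 TPM in C3.2. The other tested gene of the feedback and target group, CD44, also fell in C17.2, by 0.49 (adjusted p = 0.00342), and was named after its values were seen. The remaining 5 genes of that group did not exceed 0.28 TPM.

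The C17.2 calls of CTNNB1, LGR5, LRP5, TLE3 and BAMBI held under every processing alternative that tested them and with any 1 library left out. FZD3 was lost without any 1 of the 4 C17.2 libraries (adjusted p up to 0.0936, limma, without resistant replicate 1), and FZD2 in C3.2 held in 2 of 8 such fits and 3 of 8 processing alternatives, against 0 and 2 in C17.2. LGR5 in C3.2 was lost without parental replicate 2 (adjusted p = 0.0685) or resistant replicate 2 and when the clone was fitted alone (adjusted p = 0.105). The number of list genes called in C17.2 was 10 without parental replicate 1, 8 without parental replicate 2 and 9 without either resistant replicate. In C3.2 it was 0 without parental replicate 2 or resistant replicate 2 (11 and 10 genes at an unadjusted p under 0.05 in limma), 1 without parental replicate 1 or either parental replicate of C17.2, and 3 without resistant replicate 1.

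**Figure D4:**
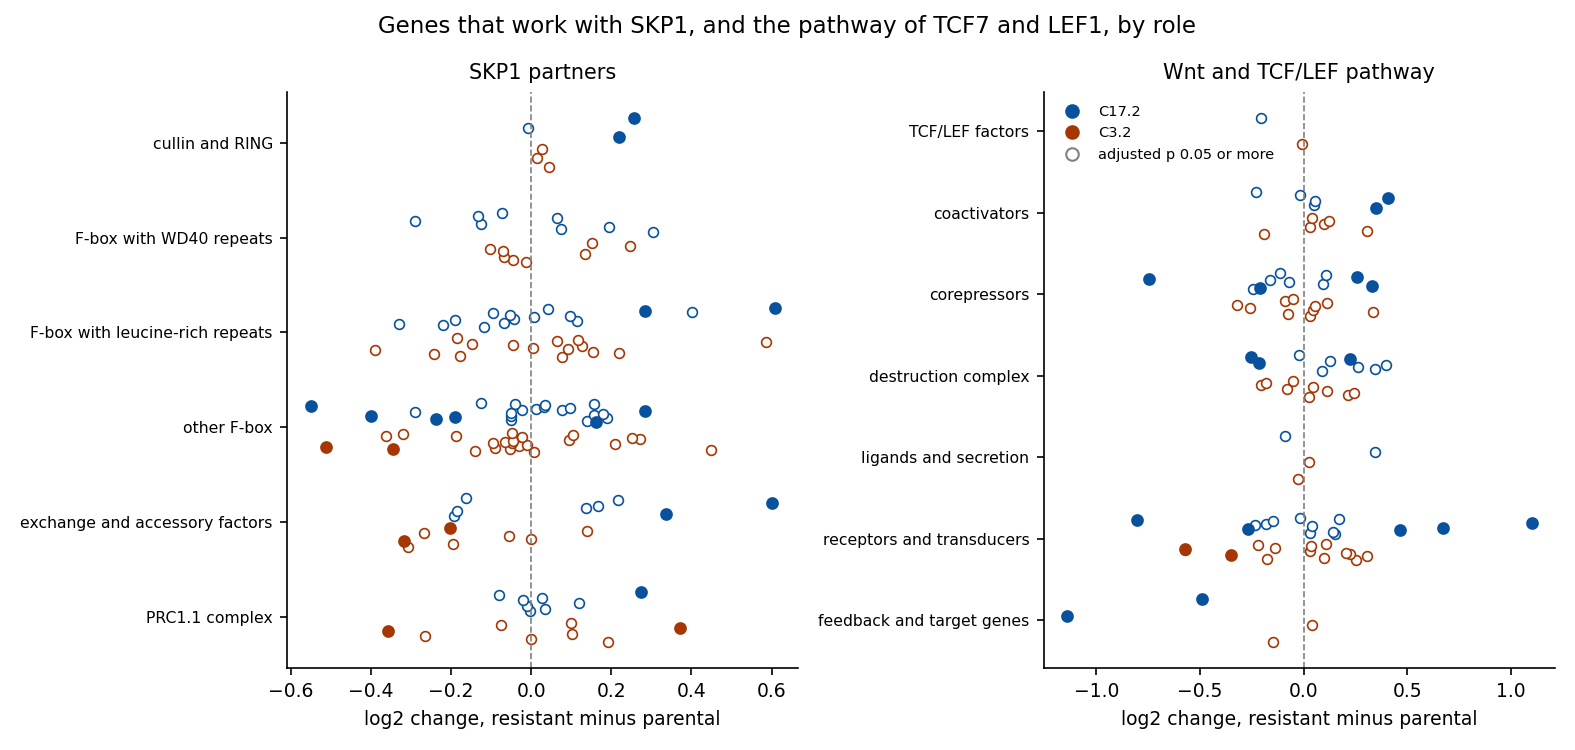
Log2 change between resistant and parental cells (horizontal axis) for the tested genes that work with SKP1 (left) and of the Wnt and TCF/LEF pathway (right), by role, with 1 circle per gene, C17.2 in blue and C3.2 in brown. Filled circles passed an adjusted p of 0.05, which 13 of 65 and 16 of 44 genes did in C17.2 against 6 and 2 in C3.2.

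The genes around SKP1 and TCF7 on chromosome 5 were compared with the pair. Of 14 tested protein-coding genes that start within 1 Mb of it, 5 passed in C17.2, or 35.7% against 27.3% of all genes, with a median log2 change of 0.16 against 0. VDAC1, C5orf15 and DDX46 were higher in resistant cells, and JADE2 and CAMLG lower (CAMLG and DDX46 were named after their values were seen), and with TPM as deposited 6 were higher and 2 lower. In C3.2, 2 passed, VDAC1 and CAMLG, both lower, or 14.3% against 11.4%, with a median of -0.041. VDAC1, a channel of the outer mitochondrial membrane and the nearest tested gene before TCF7, was at 98.2 and 94.4 TPM in parental and 122 and 128 TPM in resistant libraries of C17.2 (log2 change 0.21, adjusted p = 0.0139, limma). In C3.2 it was at 116 and 121 TPM in parental and 107 and 108 TPM in resistant libraries (-0.20, adjusted p = 0.0347), and the clones differed by 0.42 (adjusted p = 0.0124).

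PPP2CA, a catalytic subunit of protein phosphatase 2A and the nearest tested gene beyond SKP1, was at 63.9 and 55.1 TPM in parental and 72.9 and 73.0 TPM in resistant libraries of C17.2, with a log2 change of 0.14 (adjusted p = 0.454, limma). Beyond the window, the chaperone gene HSPA4 rose in C17.2, from 31.3 and 31.5 TPM to 47.2 and 50.5 TPM (0.46, adjusted p = 0.0228). JADE2, within the window, fell in C17.2 by 0.44 (adjusted p = 0.00248). The other nearest genes, ZCCHC10, AFF4, CDKL3, UBE2B and CDKN2AIPNL, did not pass in either clone. Over 17 neighbors, log2 changes in C17.2 ran from -0.55 to 0.46, and SKP1 lay above that range. SKP1 was chosen with its change known and the neighbors by position, so this order is a description only. The JADE2 call held in all alternatives, VDAC1 in C17.2 was lost without parental replicate 1 (adjusted p = 0.0694) or resistant replicate 2, VDAC1 in C3.2 held in 1 of 8 fits with a library left out and in 3 of 8 processing alternatives (adjusted p = 0.292 after quantile normalization), and HSPA4 and C5orf15 each held in 2 of 8 fits with a library left out. The number of neighbors called in C17.2 was 3 without either parental replicate and 2 without resistant replicate 2, and in C3.2 it was 0 without either parental replicate of that clone or of C17.2 (3 each at an unadjusted p under 0.05 in limma) and 1 without either resistant replicate of C17.2.

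**Figure D5:**
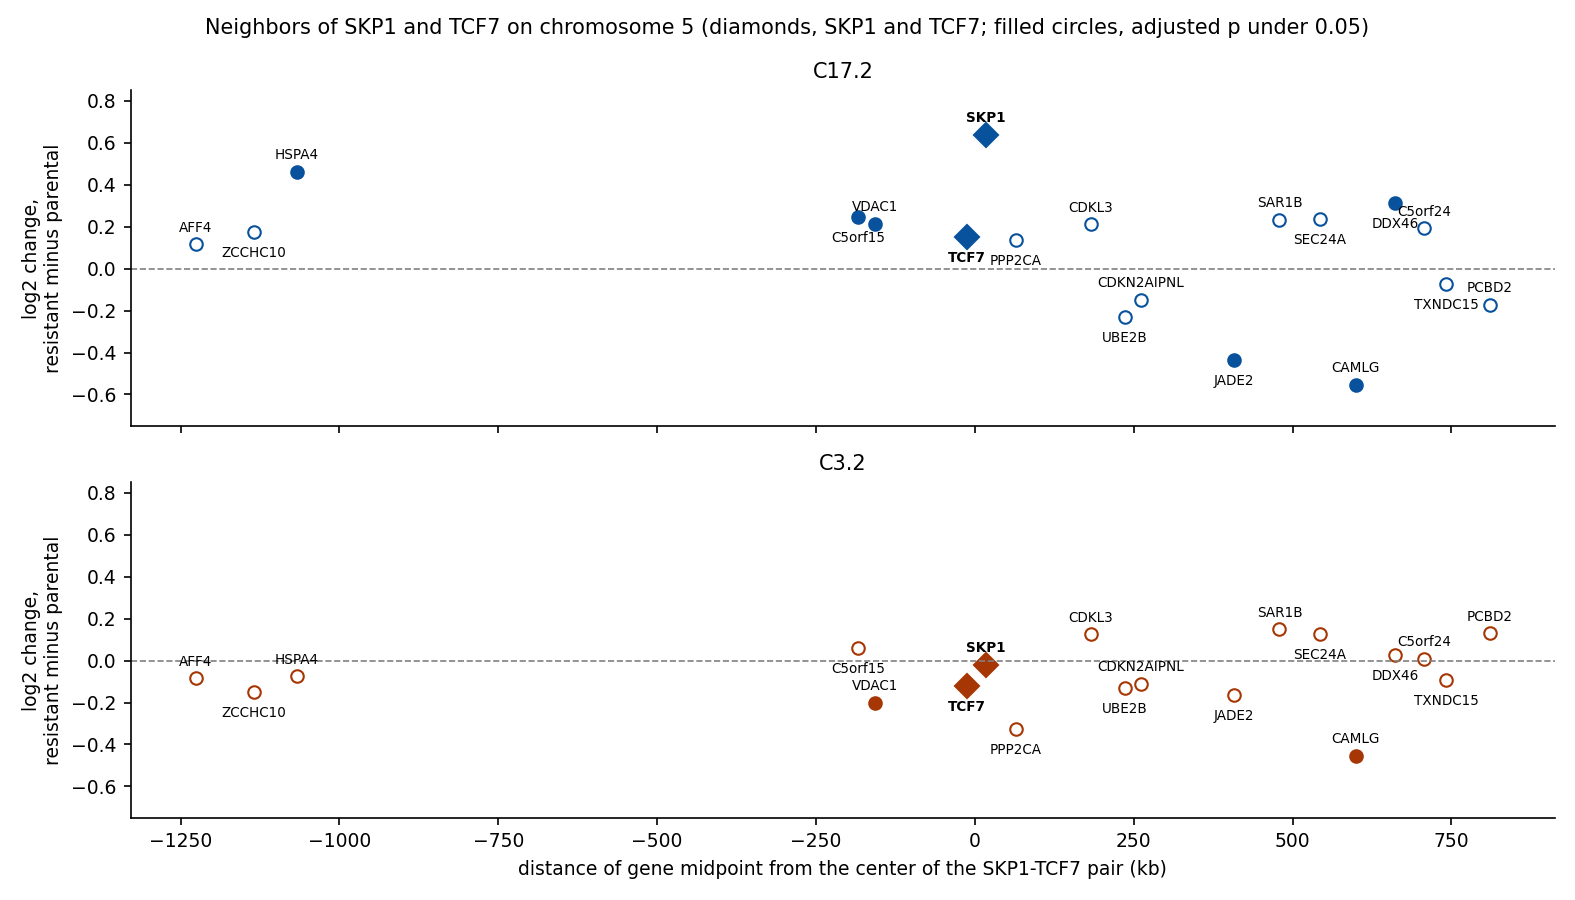
Log2 change between resistant and parental cells (vertical axis) of SKP1, TCF7 and 17 neighboring protein-coding genes against the distance of each gene from the center of the pair in kb, for C17.2 (top) and C3.2 (bottom). SKP1, chosen with its change known, lies at 0.64 in C17.2, above neighbors that run from -0.55 to 0.46. Filled circles passed an adjusted p of 0.05.

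The genes whose profile over the 8 libraries was most like that of each of the 3 were taken from 8564 protein-coding genes with a mean of at least 5 TPM, by Pearson's r of log2(scaled TPM + 1). The points share 4 groups and a common scaling, so r is a description. For SKP1 they were DLGAP5, a mitotic spindle protein (r = 0.997), HSP90AA1, the inducible form of the chaperone HSP90 (0.990), TMEM106C (0.989), ADI1, an enzyme of methionine salvage (0.987), and NUSAP1, another spindle protein (0.984). Their log2 changes ran from 0.32 (NUSAP1) to 0.96 (HSP90AA1) in C17.2 and from -0.017 (DLGAP5) to 0.041 (ADI1) in C3.2. For TCF7 they were SSBP3 (0.990), the mitotic kinase AURKB (0.983), the chromatin remodeler CHD4 (0.977), VEZT (0.974) and PTK7, a Wnt coreceptor (0.974). For LEF1 they were PEG10 (0.974), GCC2 (0.970), TMEM123 (0.969), SCAF4 (0.969) and ZCCHC2 (0.964). PEG10, a gene of retrotransposon origin, had a log2 change of -1.08 in C3.2 and -0.12 in C17.2. SKP1 and TCF7, the overlapping pair, had r = -0.094, which put TCF7 at rank 5071 of 8564 for SKP1. TCF7 and LEF1 had r = 0.65, and SKP1 and LEF1 r = -0.19.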

How the data were processed

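Per the labels and the study's methods, the authors trimmed reads with Trim Galore 0.6.3, aligned them to GRCh38 with STAR 2.7.9a and quantified genes with RSEM 1.3.1. The deposited unit is TPM per gene and library, listed to the nearest hundredth and not scaled between libraries. The labels describe single-end reads and the methods paired-end reads.

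From these values, the 15614 of 60754 rows that reached 1 TPM in any library were tested. Each library was scaled to the average library by a mean of log2 ratios that left out the 30% most extreme ratios and the 5% most extreme means on either side. Log2 of scaled TPM plus a pseudocount of 1 was fitted in limma 3.58.1 (R 4.3.3) with 4 group means over all 8 libraries, no covariate and an intensity trend. P-values were two-sided and adjusted by the Benjamini-Hochberg method over all 15614 genes, with a threshold of 0.05. The study used limma-voom, which takes counts and could not be run on TPM. No replicate numbers in the labels pair the libraries.

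The genes and lists were chosen with earlier results of these data known. The text names SKP1, TCF7 and LEF1, rows overlapping them, SKP1 pseudogenes and LEF1 antisense rows, TCF7L1, TCF7L2, CTNNB1, CUL1 and RBX1. It also names, for each list and clone, the 5 genes with the largest change among those past the threshold whose groups did not overlap, the 5 nearest tested genes on each side of the pair, and the 5 genes most like each of the 3. Gene positions came from Gencode 44 (99.5% of tested genes matched by identifier) and promoters from RefSeq.

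Tested on simulated data for the C17.2 comparison (15614 genes, 100 changed by each size), the model recovered 47% of genes changed by a log2 value of 0.5 and 79% of those changed by 1, with 5.26% of calls false. For C3.2 it recovered 36% and 85%, with 5.47% false. The simulated noise was normal and independent between genes, and only the genes counted here were changed. In the data 27.3% of genes passed in C17.2 and 11.4% in C3.2, so these shares need not hold for the data. Alternatives were other scalings, a pseudocount of 0.1, other filters, each clone fitted alone, no intensity trend and each library left out. Python 3.11.15, pandas 2.3.3 and matplotlib 3.10.9 made tables and plots. Depth is unknown, and protein sequences were not used here.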

Additional observations from a re-analysis of the deposited data

Results flagged for a closer look

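The log2 change of SKP1 between resistant and parental cells was larger in C17.2 than in C3.2 by 0.66, given with no p because the gene was chosen for its changes. For 8 other named genes the change differed between the clones by the interaction term of the limma fit, adjusted over all 15614 genes. SKP2, CAND1, FBXO21, BAMBI, LRP5 and LGR5 were named for the size of their change in a clone, which favors a difference between the clones, so their number is not read against that of all genes. Of genes that work with SKP1, SKP2 differed by 0.79 (adjusted p = 0.00231), CAND1 by 0.53 (adjusted p = 0.00787) and FBXO21 by 0.54 (adjusted p = 0.0286), all higher in C17.2, where both SKP2 and CAND1 rose. Of the pathway of TCF7 and LEF1, CTNNB1 differed by 0.31 (adjusted p = 0.0313) and LGR5 by 1.67 (adjusted p = 0.00151), while BAMBI differed by -0.99 (adjusted p = 0.035) and LRP5 by -0.84 (adjusted p = 0.0337). VDAC1, the neighbor of TCF7, differed by 0.42 (adjusted p = 0.0124).

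Over the lists, the difference between the clones passed for 3 of 65 genes that work with SKP1, 6 of 44 of the pathway of TCF7 and LEF1, and 1 of 14 neighbors, against 9.91% of all genes. The 6 included CD44 (-0.53, adjusted p = 0.0224) and GSK3B (0.43, adjusted p = 0.0305), named after their values were seen.

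The differences of SKP2, CAND1 and LGR5 passed in all 7 processing alternatives and with any 1 library left out. With 1 library left out, those of CTNNB1, LRP5 and FBXO21 passed in 2, 2 and 1 of 8 fits, and those of VDAC1 and BAMBI in 5 and 6 of 8. Of the processing alternatives, CTNNB1 and FBXO21 passed in 5 of 7, LRP5 and VDAC1 in 6 of 7, and BAMBI in 4 of 6, with a difference of -2.22 and an adjusted p of 0.128 at a pseudocount of 0.1. NEDD8 differed by 0.87 without passing (adjusted p = 0.0576).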

How the results depend on the processing

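Depth is unknown, each group had 2 libraries, and values to the nearest hundredth limit genes under 1 TPM. No paired analysis was possible because the labels give the groups no shared replicate numbers. TPM as deposited moved the median log2 change of all genes in C17.2 to 0.13, from 0 after scaling. Of calls in C17.2, 49.1% were higher in resistant cells, against 75.1% with TPM as deposited and 64.6% with TPM rescaled over protein-coding genes. In C3.2 the share was 39.3%, against 57.8% and 69.7%, and 50.8% after quantile normalization. With C3.2 fitted alone, 74 genes passed instead of 1773, of which 13.5% were higher, and with no filter 1173 passed.

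The log2 change of SKP1 in C17.2 was 0.80 as deposited, 0.73 rescaled over protein-coding genes and 0.68 after quantile normalization, and 0.60 to 0.68 with 1 library left out. In C3.2 it was 0.047, 0.084 and 0.084, and -0.033 to -0.005 with 1 left out. The difference between the clones was 0.75 as deposited, 0.59 after quantile normalization, and 0.62 to 0.70 with 1 left out. For TCF7, the change in C17.2 was 0.31 as deposited and 0.24 rescaled over protein-coding genes (0.12 to 0.19 with 1 left out), that in C3.2 -0.054 and -0.019 (-0.18 to -0.058), and the difference 0.36 as deposited (0.21 to 0.33). For LEF1, the change in C17.2 was 0.15 as deposited, 0.073 rescaled and 0.10 after quantile normalization (-0.068 to 0.043 with 1 left out), that in C3.2 -0.22, -0.18 and -0.13 (-0.32 to -0.25), and the difference 0.37 as deposited (0.22 to 0.33). The cause of these shifts was not tested beyond the shift of all genes.

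Called genes that work with SKP1 numbered 21 as deposited and 7 with the clone fitted alone in C17.2 (5 to 14 with 1 left out), and 3 as deposited, 1 with no filter and 0 with the clone fitted alone in C3.2 (0 to 9 with 1 left out), where 16 had an unadjusted p under 0.05 in limma. Pathway genes of TCF7 and LEF1 numbered 7 rescaled over protein-coding genes, 1 with no filter and 0 with the clone fitted alone in C3.2 (12 at an unadjusted p under 0.05). With 1 library left out they numbered 8 to 17 in C17.2 and 0 to 3 in C3.2. Neighbors numbered 8 as deposited in C17.2 (2 to 6 with 1 left out). In C3.2 they numbered 1 as deposited, rescaled, after quantile normalization and with no intensity trend, and 0 with the clone fitted alone (2 at an unadjusted p under 0.05, and 0 to 2 with 1 left out). After quantile normalization, added after seeing the data, the log2 difference of TCF7 to LEF1 was 0.042 in C17.2 and 0.036 in C3.2, that of SKP1 to TCF7 0.17 in C3.2, and that of SKP1 to CUL1 0.46 in C17.2 and 0.019 in C3.2. Over 31 named genes, 1259 of 1451 values kept their side of the threshold, 174 lost and 18 gained a call. The sign turned for 26 values of 14 genes, none past the threshold before or after.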
